A study of Caenorhabditis elegans with 2 samples.

Results

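The part of the worm genome described here is a set of 9 genes of synaptic vesicle release in Caenorhabditis elegans: unc-64, ric-4, snb-1, unc-18, unc-13, unc-10, snt-1, cpx-1 and unc-104. They were chosen by name from the WBcel235 annotation and make up 9 of its 19973 nuclear protein-coding genes. Binding of the forkhead transcription factor FKH-8 was mapped by chromatin immunoprecipitation with sequencing (ChIP-seq) in 1 group with 2 biological replicates. The group was strain OP652, whole mixed-sex first-stage (L1) larvae carrying the unc-119(tm4063) allele on chromosome III and the transgene wgIs652, which adds a C-terminal GFP-FLAG tag to FKH-8. Animals had been arrested by starvation at the L1 stage and were taken 6 hours later, and the tagged protein was recovered with an antibody against GFP per the description, although the antibody field names fkh-8. Whole larvae were used, so each peak averages over the cells of the body and the cell type in which a site was bound is not resolved.

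At a chemical synapse, vesicles filled with neurotransmitter fuse with the plasma membrane when calcium enters the nerve terminal. Fusion is driven by 3 SNARE proteins that zip together: syntaxin (unc-64) and SNAP-25 (ric-4) on the plasma membrane and synaptobrevin (snb-1) on the vesicle. The Munc18 protein UNC-18 binds syntaxin, UNC-13 prepares docked vesicles for fusion, the RIM protein UNC-10 places them at the active zone, synaptotagmin (snt-1) senses calcium, complexin (cpx-1) acts on the assembled SNAREs, and the kinesin UNC-104 carries vesicle precursors along the axon. In this worm FKH-8 is known to act on genes that sensory neurons use to build cilia. The comparison addressed where tagged FKH-8 was recovered at genes that neurons use for release.

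Of the 9 genes, 1 had a reproducible summit in its promoter window, and this was unc-18. The window spans the 1000 bp before the annotated 5′ end of the gene and the first 200 bp after it. The share of all coding genes was 13.8%, so the count is near the background. From 2000 bp upstream to the gene end, 4 of the 9 genes held a reproducible summit, against 21.6% of all coding genes: unc-64, unc-104, unc-18 and unc-13. These 4 genes carried 5 reproducible peaks, and the 5 summits lay upstream of the gene and none inside it. No summit of that list lay inside a release gene (0 of 9), against 5.46% of coding genes. The list holds 4963 peaks retained by the authors for their irreproducible discovery rate (IDR), which measures how well peak ranks repeat between replicates. No test was made, since there was 1 group and the genes were named with earlier results known.

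The sequences around 4 of these 5 summits, those of unc-64, unc-18 and unc-104, are given 5′ to 3′ on the strand of the gene, 100 bp to each side of the summit, from the RefSeq genome of the ce11 build. Capitals mark matches on either strand to GAGAGA (read as TCTCTC on the other strand) and to GACGC (read as GCGTC on the other strand), where overlapping matches run together. The summit sequence of unc-13 is not shown.
unc-64, chrIII:13275885-13276085, plus strand: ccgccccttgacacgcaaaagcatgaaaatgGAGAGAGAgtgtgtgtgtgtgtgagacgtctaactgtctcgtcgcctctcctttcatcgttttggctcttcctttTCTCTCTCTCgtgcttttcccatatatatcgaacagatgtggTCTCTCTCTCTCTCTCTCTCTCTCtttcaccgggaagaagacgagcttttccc
unc-64, chrIII:13276085-13276285, plus strand: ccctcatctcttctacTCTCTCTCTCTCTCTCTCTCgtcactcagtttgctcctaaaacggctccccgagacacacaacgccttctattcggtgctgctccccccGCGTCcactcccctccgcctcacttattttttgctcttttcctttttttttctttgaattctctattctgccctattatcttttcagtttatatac
unc-18, chrX:7682505-7682705, plus strand: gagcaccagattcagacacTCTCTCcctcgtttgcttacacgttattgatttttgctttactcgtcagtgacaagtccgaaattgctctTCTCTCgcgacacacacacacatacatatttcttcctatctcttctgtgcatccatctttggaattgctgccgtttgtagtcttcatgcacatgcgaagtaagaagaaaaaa
unc-104, chrII:6993016-6993216, plus strand: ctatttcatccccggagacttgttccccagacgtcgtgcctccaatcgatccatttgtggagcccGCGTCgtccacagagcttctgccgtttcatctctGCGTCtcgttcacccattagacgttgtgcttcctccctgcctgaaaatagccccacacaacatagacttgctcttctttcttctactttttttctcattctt
Next are the highest reproducible peaks between 2000 and 5000 bp upstream of the other SNARE genes, which are described further on.
snb-1, chrV:6658847-6659047, minus strand: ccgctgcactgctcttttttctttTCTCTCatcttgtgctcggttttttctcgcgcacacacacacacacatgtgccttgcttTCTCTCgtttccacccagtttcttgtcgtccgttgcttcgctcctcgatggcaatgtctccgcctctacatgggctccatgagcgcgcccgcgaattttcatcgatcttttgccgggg
ric-4, chrV:10273882-10274082, minus strand: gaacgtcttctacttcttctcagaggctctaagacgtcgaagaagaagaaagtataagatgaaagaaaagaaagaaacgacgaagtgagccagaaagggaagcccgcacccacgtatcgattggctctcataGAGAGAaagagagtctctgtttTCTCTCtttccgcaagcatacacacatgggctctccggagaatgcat

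**Figure D1:**
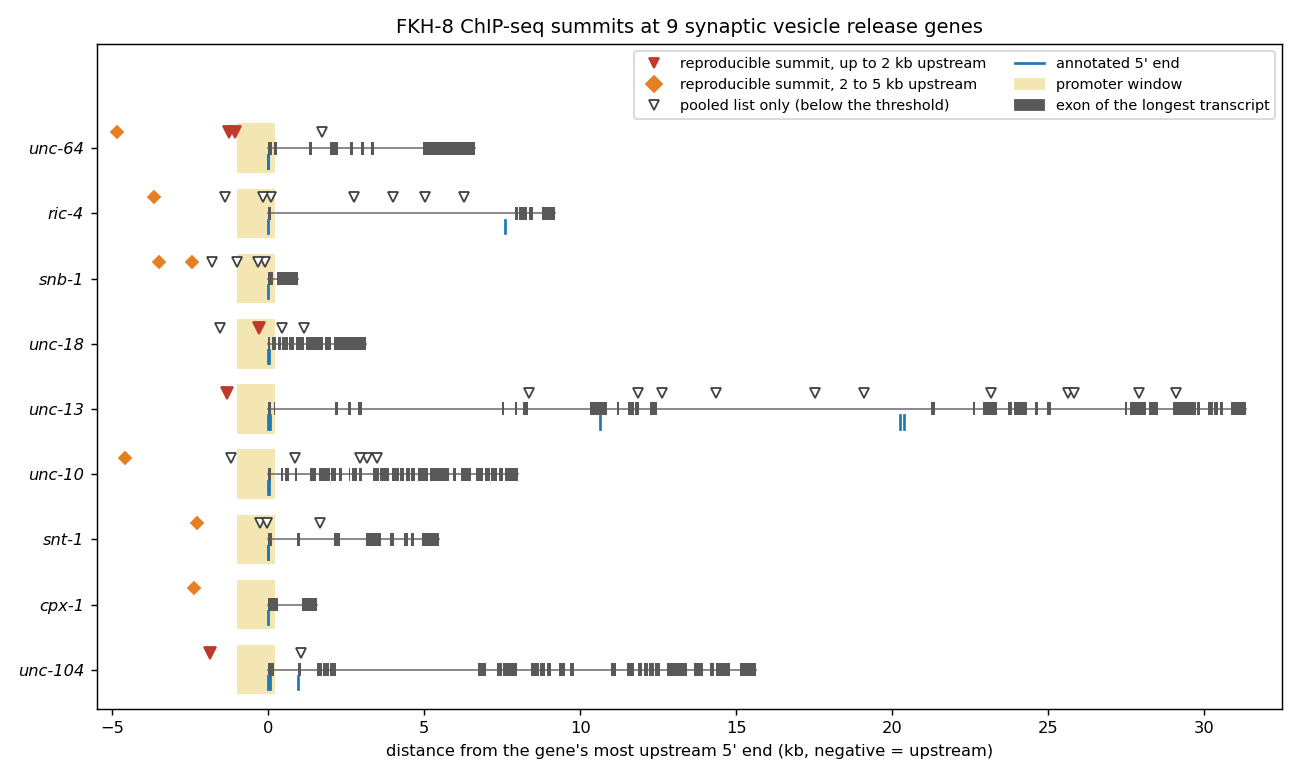
Map of the 9 genes drawn to scale, with distance from the most upstream annotated 5′ end in kb on the horizontal axis and 1 gene per row. Filled red triangles are the 5 reproducible summits up to 2 kb upstream, orange diamonds the 7 reproducible summits 2 to 5 kb upstream, and open triangles the 35 summits found in the pooled list alone; filled marks stand left of the gene body in every row and only that of unc-18 is in the shaded promoter window.

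The SNARE gene unc-64, which encodes syntaxin (WBGene00006798, chrIII:13277258-13283887, plus strand), had the highest signal of the set. Its main peak, chrIII:13275872-13276086, had a pooled signal of 615.5, rank 174 of 4963, with the summit 1273 bp upstream of the 5′ end. The same peak had a signal of 321.0 (rank 142 of 19354) in replicate 1 and 292.9 (rank 233 of 21452) in replicate 2. It was thus among the highest peaks of both lists, and the summits of the replicates lay 11 bp and 39 bp from the pooled summit. A second reproducible peak overlapped it, its summit 1073 bp upstream of the gene and its signal 126.5 (rank 3510). In replicate 1 a separate summit 1057 bp upstream had a signal of 33.4 (rank 8010), and replicate 2 had no second summit there. Both summits lay just outside the promoter window, whose limit is 1000 bp. The nearest other coding 5′ end, that of cpf-2, was 7102 bp from the main summit. The non-coding RNA gene F56A8.10, on the plus strand, lies between the 2 summits and unc-64. It starts 975 bp from the main summit and 775 bp from the second, so both were nearer to it than to unc-64. A lone intronic summit, 1724 bp downstream in intron 3, had a pooled signal of 39.0 (rank 15572 of 17956), with 28.8 in replicate 1 and no partner in replicate 2.

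The other SNARE genes had no reproducible peak within 2000 bp upstream or inside the gene. At snb-1 (synaptobrevin, WBGene00004897, chrV:6655562-6656501, minus strand) the pooled list held 4 summits, 106, 332, 999 and 1791 bp upstream. The highest of these, 999 bp upstream and so just inside the promoter window, had a signal of 83.7 (rank 5726 of 17956). It was present with signals of 43.4 (rank 5676) in replicate 1 and 44.3 (rank 5600) in replicate 2, outside the best 4963 peaks of each. The summits at 106 and 332 bp had no overlapping peak in replicate 1, so the peaks closest to the 5′ end of snb-1 came from replicate 2.

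At ric-4 (SNAP-25, WBGene00004364, chrV:10261131-10270314, minus strand) the pooled list held 7 summits, all with signals from 44.9 to 80.7 and ranks below 4963. In the promoter window were a summit 165 bp upstream (signal 76.3, rank 6422) and one 75 bp downstream in the first coding exon (73.5, rank 6729). The upstream summit had counterparts of 34.3 (rank 7737) in replicate 1 and 41.3 (rank 6070) in replicate 2. The exonic one had 40.7 (rank 6166) in replicate 1 and 30.2 (rank 8709) in replicate 2, so the replicates ordered this pair differently. Another 4 summits lay in intron 1, which is 7804 bp long. A second annotated 5′ end lies 7571 bp into the gene, and the closest of the 4 summits to it was 1299 bp upstream of it. The highest of the 4, 3982 bp downstream of the first 5′ end, had a pooled signal of 80.7 (rank 5976), with 34.6 in replicate 1 and 45.1 in replicate 2. A summit 1401 bp upstream split the replicates: it ranked 4496 in replicate 2 (signal 53.5) and had no overlapping peak in replicate 1.

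The syntaxin-binding gene unc-18 (WBGene00006757, chrX:7682896-7686037, plus strand) was the gene with a reproducible promoter peak. The peak, chrX:7682397-7682812, had its summit 291 bp upstream and a pooled signal of 181.4, rank 2145 of 4963. Its signal was 102.1 (rank 1789) in replicate 1 and 72.9 (rank 3024) in replicate 2, and both summits lay within 7 bp of the pooled one. No other coding gene had this summit in its promoter window, the nearest other 5′ end being that of stn-2, 1986 bp away. Below the threshold, a summit in intron 6 (69 bp long), 1151 bp downstream, had a pooled signal of 68.3 and was present in both replicates. The replicate 1 summit lay in the same intron, and the replicate 2 summit, 1106 bp downstream, in a coding exon. Summits 1545 bp upstream, in the window of stn-2, and 428 bp downstream in an untranslated exon had 50.9 and 50.1 and were found in replicate 1 but not in replicate 2.

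The priming gene unc-13 (WBGene00006752, chrI:7422785-7454116, plus strand) is the longest of the set at 31332 bp and has 5 distinct annotated 5′ ends. Its reproducible peak, chrI:7421268-7421683, had its summit 1309 bp upstream with a pooled signal of 148.5, rank 2835. The signal was 67.7 (rank 3155) in replicate 1 and 78.1 (rank 2753) in replicate 2, with summits 4 bp and 1 bp from the pooled one. Replicate 1 had a further summit 1534 bp upstream with a signal of 55.1 (rank 4211), which replicate 2 lacked. The nearest other coding 5′ end, that of C15A11.7, was 16526 bp away.

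Inside unc-13 the pooled list held 11 more summits, 7 in introns and 4 in coding exons, with none in the reproducible list. The highest, in intron 20 at 25618 bp downstream, had a pooled signal of 86.8 and rank 5501. In the replicates this region ranked within the best 4963 peaks, at 4731 in replicate 1 (signal 50.1) and 3889 in replicate 2 (60.4). The summits of the replicates were apart, however: that of replicate 2 was 1 bp from the pooled summit and that of replicate 1 was 176 bp from it, next to a second pooled summit of signal 39.8. Intron 13, the longest at 8805 bp, held 4 pooled summits with signals from 44.3 to 65.5. Its last summit lay 1160 bp upstream of an alternative 5′ end and had 62.8 in the pooled list, 37.5 in replicate 1 and 21.7 in replicate 2.

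The active zone gene unc-10 (RIM, WBGene00006750, chrX:7272317-7280322, minus strand) had 5 pooled summits and no reproducible one. The highest lay in intron 11, 3166 bp downstream, with a signal of 76.4 (rank 6408), with counterparts of 42.6 (rank 5820) in replicate 1 and 26.7 (rank 10213) in replicate 2. A summit 1202 bp upstream had a pooled signal of 61.3, with 43.7 (rank 5624) in replicate 1 and 19.4 (rank 16494) in replicate 2. The replicates thus placed that upstream peak far apart in rank. No pooled summit lay in the promoter window of unc-10.

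The calcium sensor gene snt-1 (synaptotagmin, WBGene00004921, chrII:6810963-6816433, plus strand) had 3 pooled summits of low signal. Those 259 and 56 bp upstream had 53.6 (rank 9702) and 46.8 (rank 11647), and the one in intron 2 had 40.2. Replicate 1 had a single summit near the 5′ end, 222 bp upstream, with 37.5 (rank 6844). Replicate 2 had summits 267 and 42 bp upstream with 17.2 (rank 20163) and 20.6 (rank 14902), low in its list. The complexin gene cpx-1 (WBGene00022271, chrI:1594649-1596216, minus strand) had no pooled summit at all from 2000 bp upstream to its end. Replicate 2 listed a summit 316 bp upstream with a signal of 20.2 (rank 15499), and replicate 1 listed summits 798 bp upstream and 1542 bp downstream with 21.3 (rank 17270) and 20.7 (rank 18426). None of these was shared, and all lay in the lower part of their lists.

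The vesicle kinesin gene unc-104 (WBGene00006831, chrII:6994987-7010625, plus strand) had the second highest signal of the set. Its peak, chrII:6992908-6993323, had its summit 1871 bp upstream and a pooled signal of 345.8, rank 768. The signal was 154.3 (rank 898) in replicate 1 and 197.0 (rank 628) in replicate 2. The lincRNA gene linc-73 starts between this summit and unc-104, 876 bp from the summit, and the nearest other coding 5′ end, that of C15F1.1, was 3236 bp away. A summit in intron 2, 1064 bp downstream, lay 119 bp downstream of a further annotated 5′ end of unc-104 and so in the promoter window of that shorter transcript. Its pooled signal of 84.7 (rank 5649) was below the threshold, with 40.4 (rank 6208) in replicate 1 and 39.7 (rank 6369) in replicate 2. The summits of these replicate peaks, 1023 and 1039 bp downstream, lay in a coding exon and not in the intron.

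**Figure D2:**
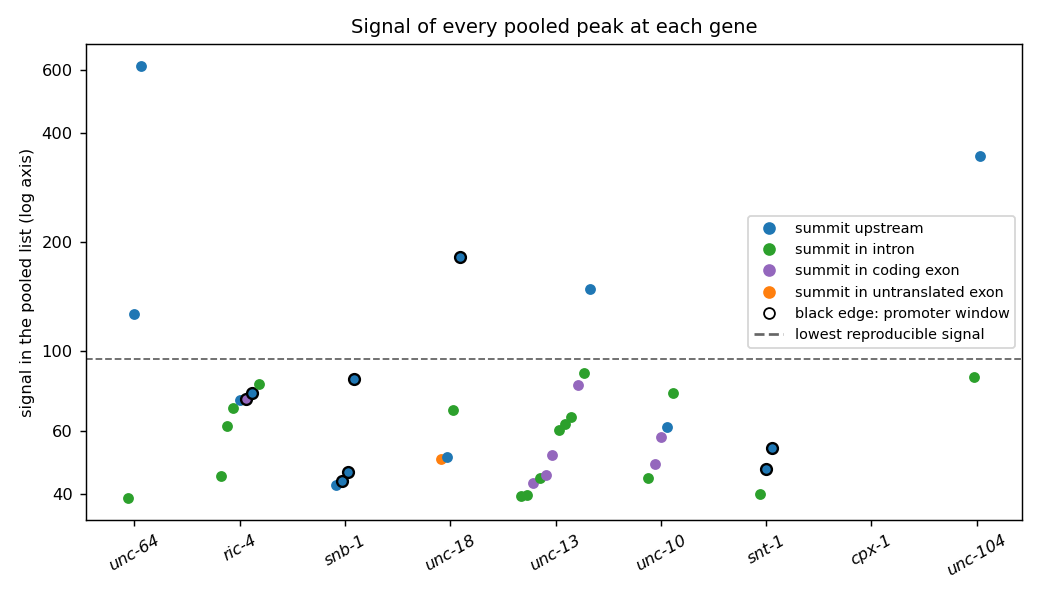
Signal in the pooled list (log axis) of each of the 40 pooled peaks from 2000 bp upstream to the gene end, by gene, coloured by where the summit lies; a black edge marks summits in the promoter window and the dashed line the lowest reproducible signal, 94.9. The 5 peaks above the line are upstream of unc-64 (615.5 and 126.5), unc-104 (345.8), unc-18 (181.4) and unc-13 (148.5), and cpx-1 has no point.

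Of the 40 pooled peaks at the 9 genes, 35 were below the reproducible threshold, with signals from 39.0 to 86.8 and a median of 53.6. The median of all 12993 pooled peaks below the threshold was 47.4. Their −log10 q-values ranged from 0.0665 to 1.99, and the labels of the pooled and replicate lists say that they hold background as well as peaks. Of the 35, 25 (71.4%) overlapped a peak in each replicate's list by 1 bp or more, against 59.9% of all pooled peaks below the threshold. Neighbouring peaks could share a partner under that rule. When summits within 100 bp were required, 22 of the 40 pooled peaks matched in both replicates, 4 of them reproducible. The share over all pooled peaks was not computed for the stricter rule. The 5 reproducible peaks overlapped a peak in both replicates, but the second unc-64 peak shared the partners of the main one there. Of the 40 summits, 15 lay upstream, 17 in introns, 7 in coding exons and 1 in an untranslated exon.

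**Figure D3:**
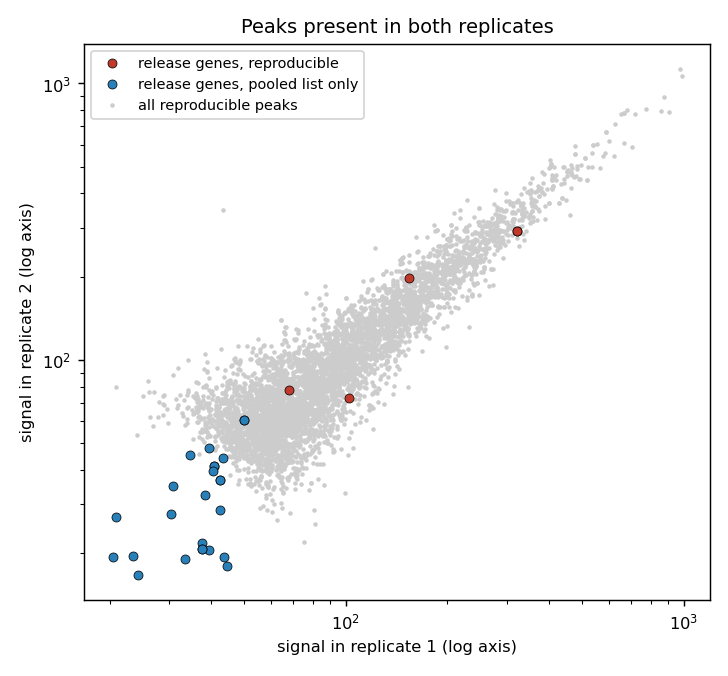
Signal in replicate 2 against signal in replicate 1 (both log axes) for the pooled peaks of the 9 genes that overlapped a peak in both replicates, with all reproducible peaks in grey; neighbouring peaks that overlap the same replicate peak share a point. The reproducible peaks of the set lie within the grey cloud, with unc-64 at 321.0 and 292.9. The others, all with a pooled signal below the lowest reproducible one (94.9), lie at its lower end or below it.

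The pooled summits were dense over these loci. Inside the 9 genes there were 30.5 pooled summits per 100 kb, against 13.9 for all coding genes and 16.9 for the 2067 coding genes at least as long as the median of the set (6630 bp). Without unc-13, which held 11 of the 25 summits, the value was 27.7. In introns it was 31.1 per 100 kb, against 15.3 for all coding genes and 18.4 for the long ones, and in the 2000 bp upstream it was 83.3, against 22.1 and 28.5. In the reproducible list the intron value was 0, against 3.63 for all coding genes and 4.85 for the long ones, and the upstream value 27.8, against 8.09 and 12.8. The higher value in introns thus came from peaks below the threshold, while the reproducible value was lower than both backgrounds, and neither was tested. The upstream values do not compare like sequence. Each of the 9 genes had at least 2276 bp free of other coding genes upstream. The median over all coding genes was 938 bp, so their 2000 bp upstream often runs into a neighbouring gene. Upstream density was not computed for genes with like free space. A summit in the pooled list lay in the promoter window of 4 of the 9 genes (unc-18, snb-1, ric-4 and snt-1), against 29.8% of coding genes, and from 2000 bp upstream to the gene end in 8 of 9, against 49.7%. It lay inside the gene in 7 of 9, against 24.3% of coding genes, and in 5 of the 5 long ones, against 62.6% of long genes. In the reproducible list the inside count was 0 of those 5, against 23.8%.

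The full lists of the replicates gave higher counts with higher backgrounds. In replicate 1 a summit lay in the promoter window of 6 of the 9 genes, against 30.2% of coding genes, and from 2000 bp upstream to the gene end in 9 of 9, against 53.1%. In replicate 2 the counts were 8 of 9, against 32.6%, and 9 of 9, against 55.7%. With the best 4963 peaks of replicate 1 the counts were 1 of 9, against 13.5%, and 4 of 9, against 21.4%. With those of replicate 2 they were 1 of 9, against 13.8%, and 5 of 9, against 21.3%. The excess of promoter summits in the full lists thus came from peaks of low rank.

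The release genes were longer than most coding genes and had more free space upstream. The genes had a median length of 6630 bp, against 2027 bp for all coding genes, and a median of 5621 bp free of other coding genes upstream, against 938 bp. Of the 5 release genes of at least 6630 bp, 3 held a reproducible summit from 2000 bp upstream to the gene end, against 40.2% of coding genes of that length, and 5 held a pooled one, against 75.9%. A further background was the 5773 coding genes with at least as much free space as unc-18, which had the least of the set (2276 bp). The 4 of 9 release genes with a reproducible summit in that span stood against 21.7% of these, and the 1 of 9 with one in the promoter window against 10.8%. For pooled summits the counts of 8 of 9 and 4 of 9 stood against 54.1% and 28.5%. That restriction was chosen after the data were seen. The background shares for the whole span were thus higher among long genes and nearly the same among genes with free space, and the part of length in the counts was not tested.

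Reproducible summits stood well upstream in most of the set. Between 1000 and 2000 bp upstream a reproducible summit was found at 3 of the 9 genes (unc-64, unc-13 and unc-104), against 5.76% of coding genes and 7.6% of those with the free space of unc-18. A pooled summit lay there at 7 of 9, against 16.2%. Between 2000 and 5000 bp upstream a reproducible summit was found at 6 of the 9, against 13.4% of all coding genes. For the pooled summits and for this farther zone, no share was computed among genes with like free space. With the span extended to 5000 bp upstream, 9 of the 9 genes held a reproducible summit, against 30.4% of all coding genes. The share was 30.8% of those with the free space of unc-18 (2276 bp), which is less than that span. Of the 5 long release genes 5 held one, against 48.1% of long genes. The 5 genes that had none within 2000 bp each gained at least 1, and 11 of the 12 peaks lay more than 1000 bp upstream. That zone is most of the 5000 bp span. How the peaks of all coding genes divide between these zones was not computed, so this placement cannot be called particular to the 9 genes. The zones between 1000 and 2000 bp and between 2000 and 5000 bp were chosen after the data were seen.

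The added peaks belonged to both the SNARE genes and the regulators. Upstream of snb-1 a summit at 2446 bp had a signal of 307.7 (rank 946), with 153.5 in replicate 1 and 155.7 in replicate 2, and one at 3513 bp had 138.0. Upstream of ric-4 a summit at 3668 bp had 286.5 (rank 1076), with 149.7 in replicate 1 and 133.4 in replicate 2. In both genes the far upstream peak thus ranked above every pooled peak within 2000 bp upstream or inside the gene. The summit 2381 bp upstream of cpx-1 had 281.4 (rank 1109), with 129.7 in replicate 1 and 152.5 in replicate 2, although the pooled list held no summit within 2000 bp upstream of this gene or inside it. The summit 4590 bp upstream of unc-10 had 234.0 (rank 1500), the one 2276 bp upstream of snt-1 had 162.8 (rank 2508), and another one at unc-64, 4852 bp upstream, had 109.7 (rank 4211). None of the 7 lay in the promoter window of another coding gene. For snb-1, unc-10 and cpx-1 the nearest coding 5′ end was that of the gene itself, while that of Y22F5A.11 was closer to the ric-4 peak (1664 bp), that of F31E8.5 to the snt-1 peak (1425 bp) and that of cpf-2 to the far unc-64 peak (3523 bp).

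The sequence at the reproducible summits was searched for 4 motifs on both strands within 100 bp. The forkhead core TAAACA was found at 0 of the 5 summits within 2000 bp and at 0 of the 12 within 5000 bp, against 13.4% of all reproducible summits. The X-box, the site of the RFX factor DAF-19 in ciliary genes, was found at 0 of 12, against 3.49%. GACGC, an alternative forkhead core, was found at 3 of the 5 (unc-13, unc-64 and unc-104) and 4 of the 12, against 30.7%. In unc-104 one of its matches spans the summit, and in the lower peak of unc-64 a match lies 5 bp from it. GAGAGA, a comparison motif, was found at 3 of the 5 (unc-18 and both unc-64 summits) and 8 of the 12, against 34.6%. The capitals in the unc-64 sequences show runs of this repeat on both sides of the main summit. A match is a description of the letters and says nothing of which protein was there. GC content within 100 bp ranged from 42.3 to 52.2% over the 5 summits, and its median over all reproducible summits was 40.8%.

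Other genes of the release pathway, family relatives of its members and axonal transport genes were described from 7 lists. Of these, 113 different genes matched the annotation, so their shares are not those of release genes alone. A reproducible summit lay in the promoter window of 31 of them (27.4%), against 13.8% of all coding genes, and from 2000 bp upstream to the gene end in 61 (54.0%), against 21.6%. Their median length was 5633 bp, also above that of all coding genes. The 9 release genes, at 1 and 4 of 9, thus had a lower share in the promoter window than these relatives, a difference of small counts that was not tested.

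The counts of each list below are for the promoter window and the locus, where the shares of all coding genes were 13.8% and 21.6%. Differences between the lists were not tested. Their median gene lengths ran from 2319 bp (relatives of the SNAREs and of synaptotagmin) to 13138 bp (active zone), so their locus counts do not compare like spans. Genes of axonal transport had a promoter peak at 8 of 16 and a peak anywhere in the locus at 14 of 16, led by unc-76 (signal 556.8, 293 bp upstream), unc-16 (427.3), which encodes a cargo adaptor of kinesin, and unc-14 (344.7). Genes of the vesicle membrane had 4 and 6 of 8, with rab-3, the Rab protein of synaptic vesicles, at 538.9 in an intron and scm-1 at 623.8, in the windows of tub-2 and Y71G12A.5. The G protein and kinase genes that modulate release had 6 and 14 of 19. Among these, egl-30, the Gq alpha subunit, had a signal of 985.1 (rank 29) 54 bp upstream in a window shared with C53H9.4, with 482.6 in replicate 1 and 501.6 in replicate 2, and eat-16, an RGS protein, had 773.9.

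Active zone genes had 3 and 8 of 14, with syd-2 at 351.0 and the calcium channel subunit unc-36 at 286.4 in their promoter windows and syd-1 at 327.1 in an intron. Vesicle endocytosis genes had 4 and 6 of 11, led by the clathrin adaptor subunit gene dpy-23 (695.3) and by unc-57, endophilin, 1068 bp upstream (450.6). Relatives of the SNAREs and of synaptotagmin had 6 and 11 of 27, among them snt-4 at 576.3 and syx-5 at 438.7 in the promoter window and snt-3 at 500.9 in an intron. The windows of syx-5 and of snap-1 (349.3), an adaptor for taking SNARE complexes apart, were shared with F55A11.1 and spr-1. Genes that make and load transmitters had 0 and 2 of 18, the 2 being the vesicular GABA transporter unc-47, 1866 bp upstream (158.8), and the vesicular monoamine transporter cat-1 (114.6 in an intron).

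Of the 2 comparison lists, dense-core vesicle genes, which serve the release of neuropeptides, had a promoter peak at 8 of 16 and a locus peak at 11 of 16. The highest signals in their promoter windows were 769.5 at unc-108, 762.0 at vps-51 in a window shared with lin-35, and 726.8 at rund-1. A peak of egl-3, which encodes a proprotein convertase that processes neuropeptides, had 754.9 and lay 1070 bp upstream, outside the window. Intraflagellar transport genes had 14 and 16 of 20. The release genes, at 1 and 4 of 9, had smaller shares than both lists in these counts, and the differences were not tested. The span from 5000 bp upstream, in which 9 of 9 release genes held a reproducible summit, was not counted for the pathway or comparison lists. The lists were chosen with earlier results of these data known.

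**Figure D4:**
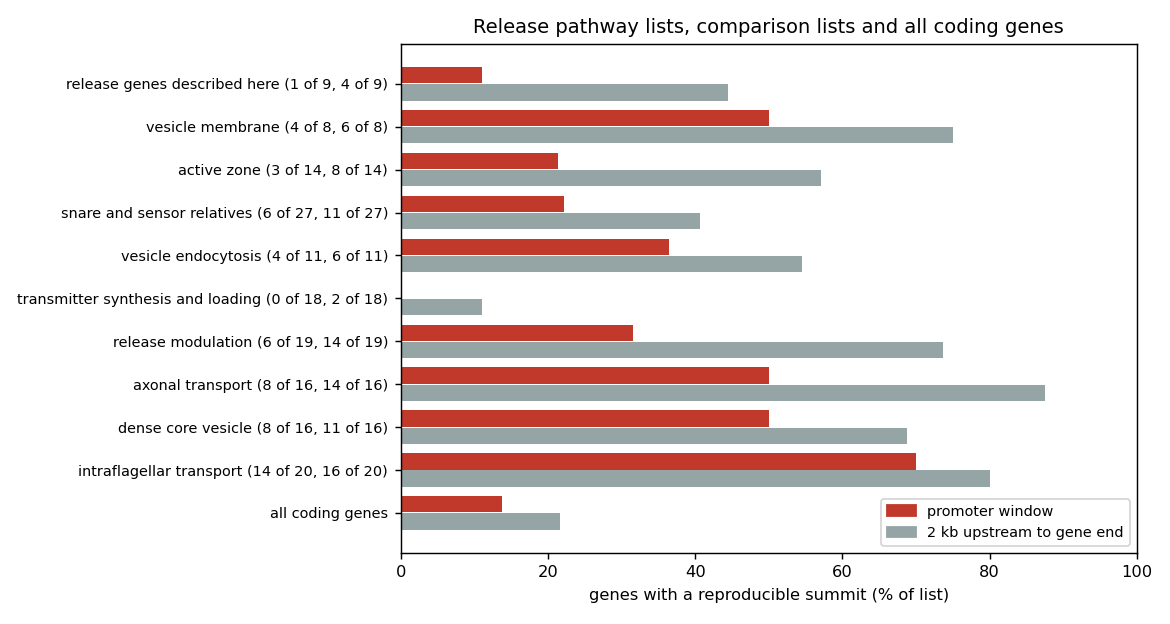
Share of genes (in %) with a reproducible summit in the promoter window (red) and from 2 kb upstream to the gene end (grey), for the 9 release genes at the top, the 7 pathway lists, the 2 comparison lists and all coding genes at the bottom, with counts in the labels. The red bar of the release genes (11.1%) is near that of all coding genes (13.8%), while the grey bar (44.4%) is longer than theirs (21.6%).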

How the data were processed

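ChIP-seq peaks of tagged FKH-8 from 1 group with 2 replicates were analysed from the 4 deposited ce11 peak lists: replicate 1 (19354 peaks), replicate 2 (21452), pooled (17956) and reproducible (4963, identical to the pooled peaks of highest signal). The 4 lists on ce10 were not used. Per the deposited file lists, the authors derived the replicate and pooled lists from alignments and the reproducible list from those 3 lists. Which aligner, which peak caller and what IDR cutoff they used is not given in the sources used here, and the controls the labels mention were not used here. The peak signal is the authors' deposited value, its scaling not stated, and is used only to describe and rank peaks within a list. The deposited −log10 q-value shares an upper limit and was not used for ranking. Read counts were not analysed here, so the depth is unknown.

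Summits were placed with Python 3.11.15 on Ensembl release 115 genes (WBcel235, the same assembly as ce11), 1-based, as column 2 plus column 10 plus 1. The 5′ end is the most upstream annotated end of a gene and may be a trans-splice site. Replicate peaks were paired by an overlap of 1 bp or more, taking the highest, so neighbours can share a partner. For single summits inside the 9 genes or up to 2000 bp upstream, replicate values are those of the nearest replicate summit. For the peaks farther upstream and for egl-30 they are those of the paired peak. Window assignment was checked on peaks placed at known distances. Alternatives were other thresholds, windows, 5′ ends, single replicates and overlaps. The members and lists were chosen with earlier results of these data known. Named were the 9 members, the highest genes of each list by signal (up to 3 in the promoter window and 3 in the locus), neighbours at member summits; 1 listed gene (erp-1) had no match by symbol.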

Additional observations from a re-analysis of the deposited data

How the results depend on the processing

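With the best 4963 peaks of a single replicate, 1 gene had a promoter summit in either case, 4 to 5 had one from 2000 bp upstream to the gene end and the loci held 6 peaks in either case; the shares of all coding genes were 13.5 to 13.8% and 21.3 to 21.4%. With the 2481 highest reproducible peaks, 1 gene had a promoter summit and 3 a summit in the locus, with 3 peaks (8.08% and 12.7% of coding genes for the 2 spans). With 9926 pooled peaks, 4 genes had a promoter summit and 8 a summit in the locus, with 23 peaks (21.3% and 33.2%), and with the whole pooled list 4, 8 and 40 (29.8% and 49.7%). From 500 bp upstream the promoter count and the locus count were each 1 gene, with 1 peak (10.9% and 14.8%). Windows from 2000 bp upstream to 500 bp downstream gave 4 genes (18.8%), and loci from 5000 bp upstream gave 9 with 12 peaks (30.4%). With the 5′ ends of all transcripts the promoter share of coding genes was 15%, and with summits in no other promoter window the shares were 7.65% and 13.3%, the counts of release genes staying at 1 and 4. Among genes with the upstream space of unc-18, an alternative added after the data were seen, the shares were 10.8% and 21.7%. With a reciprocal overlap of 50%, 3 of the 5 reproducible peaks and 24 of the 40 pooled ones were matched in both replicates. With summits within 100 bp these counts were 4 and 22. Within 200 bp of the summit TAAACA was found at 1 of the 5 summits, against 26.1% of all reproducible summits, and GAGAGA at 5 of the 5, against 46%. The cause of these changes was not tested beyond what each setting adds or removes. No paired analysis was possible because there was 1 group. The read depth is unknown, so a missing peak cannot be told from one below the list's limit.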
